A study of Mus musculus with 4 samples.

Results

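Internal exons are the exons of a transcript other than its first and its last. The regions described here are H3K36me3 ChIP-seq peaks of the mouse embryonic forebrain that the authors' annotation placed on such an exon, that is, on exon N of M in a transcript with at least 3 exons, with N neither 1 nor M. There were 7156 of them among the 95750 peaks of the H2A.z1cKO library and 4646 among the 36820 peaks of the wild-type (WT) library, 11802 of 132570 in all. The choice used the annotated class of each peak and none of its measured values.

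The chromatin came from neural progenitor cells of the embryonic day 13 forebrain, in 2 genotypes. H2A.z1cKO (cKO below) carries a brain-specific deletion of H2A.z1 (H2az1), which encodes the histone variant H2A.Z.1, and WT carries none. The driver of the deletion, the sex of the embryos and the number pooled are not given in the sources used here, and nor is the share of cells in which the gene was lost. Each genotype had 1 ChIP library and 1 input library. No difference between genotypes therefore has a replicate check, none was tested, and the exact 95% intervals (Clopper-Pearson) on shares cover counting error only.

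H3K36me3 is trimethylation of lysine 36 of histone H3. The enzyme SETD2 travels with elongating RNA polymerase II and writes the mark across the bodies of transcribed genes, usually more towards their 3′ ends. The mark is known to be richer over exons than over the introns around them, and its readers include proteins that act on splicing, DNA methylation and histone deacetylation. It forms broad domains, so a caller of narrow peaks cuts a domain into pieces, and each piece then takes the annotation of 1 place.

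No genome sequence was used, so the sequences shown are those that RefSeq (GRCm38.p6) gives for landmarks lying wholly inside internal-exon peaks. Of 32851 annotated 300-base windows around gene starts, 12 did, 10 of them inside cKO peaks and 4 inside WT peaks. Those inside peaks of both libraries belong to long non-coding RNA genes, not to the gene of the exon. The third shown, inside a cKO peak, is an internal start site of Ank2, which encodes the membrane scaffold ankyrin-B, under the peak on its exon 38 of 46. They are shown because they are annotated starts that lie under internal-exon peaks, and CG dinucleotides, the sites of DNA methylation, are in capitals. 1700094J05Rik lies at chr10:76388765-76389064 (+ strand) under the peaks on exon 25 of 42 of Pcnt, Gm26891 at chr7:27926158-27926457 (+ strand) under those on exon 2 of 3 of Zfp974, and the Ank2 start at chr3:126943337-126943636 (− strand).
1700094J05Rik start window: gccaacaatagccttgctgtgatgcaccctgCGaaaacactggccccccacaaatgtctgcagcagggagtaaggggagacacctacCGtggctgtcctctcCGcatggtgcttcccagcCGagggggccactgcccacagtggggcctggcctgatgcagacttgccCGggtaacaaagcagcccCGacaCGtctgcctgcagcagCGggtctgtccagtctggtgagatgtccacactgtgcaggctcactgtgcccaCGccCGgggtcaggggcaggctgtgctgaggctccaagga
Gm26891 start window: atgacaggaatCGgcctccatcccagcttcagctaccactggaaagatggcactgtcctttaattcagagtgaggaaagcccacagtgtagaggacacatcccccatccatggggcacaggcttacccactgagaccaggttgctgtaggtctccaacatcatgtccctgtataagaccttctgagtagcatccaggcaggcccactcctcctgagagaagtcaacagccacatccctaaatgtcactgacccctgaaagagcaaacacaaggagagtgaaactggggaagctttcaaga
Ank2 internal start window: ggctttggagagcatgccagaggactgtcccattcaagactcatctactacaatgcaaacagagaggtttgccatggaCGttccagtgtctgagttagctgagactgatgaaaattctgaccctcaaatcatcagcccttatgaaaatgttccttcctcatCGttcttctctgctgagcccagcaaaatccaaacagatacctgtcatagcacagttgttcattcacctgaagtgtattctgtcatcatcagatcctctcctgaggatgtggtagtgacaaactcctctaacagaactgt
These windows hold 10, 1 and 2 CG dinucleotides and have 63.7%, 51.7% and 45% G and C. All 32851 windows had a median of 7 CG (quartiles 3 and 20) and of 52.7% G and C, and 94.6% of them held at least 1 CG. The Pcnt exon carried a cKO peak of 1326 bp and a WT peak of 401 bp, and the Zfp974 exon a cKO peak of 615 bp and a WT peak of 576 bp.

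Of 1005 miRNA hairpins in RefSeq, 7 lay wholly inside an internal-exon peak, 6 in cKO peaks and 1 in a WT peak. One is Mir5125, at chr17:23823291-23823369 (+ strand), inside the cKO peak on exon 10 of 14 of Srrm2. It is shown because that exon carries one of the strongest peaks of the cKO list (below), with the mature miRNA in capitals.
Mir5125 hairpin: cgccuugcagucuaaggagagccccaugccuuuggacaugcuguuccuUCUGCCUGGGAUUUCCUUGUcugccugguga

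Internal-exon peaks were more numerous in cKO, but less so than peaks of other classes. The 7156 cKO peaks were 7.47% (7.31 to 7.64) of the cKO list, and the 4646 WT peaks were 12.6% (12.3 to 13) of the WT list. Their ratio, cKO over WT, was 1.54, against 2.6 for all peaks. Peaks in internal introns (introns other than the first and last) numbered 47643 in cKO against 14772 in WT, 3.23 times as many. For peaks on last exons the ratio was 2.1, for peaks at annotated transcript ends 2.06, for promoter peaks 1.8 and for first-intron peaks 4.42. Among the classes compared, internal exons had the lowest ratio. For each internal-intron peak there were 0.15 internal-exon peaks in cKO and 0.315 in WT.

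The ratio of numbers depends on the length of the lists. When the cKO list was reduced to its strongest 36820 peaks, the number in the WT list, it held 3474 internal-exon peaks against 4646 in WT, a ratio of 0.748. Internal-exon peaks were then 9.44% of the cKO list and 12.6% of the WT list, with 0.204 and 0.315 per internal-intron peak.

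In bases, the order of the genotypes was the same and the gap larger. The bases under internal-exon peaks came to 5.86 Mb in cKO against 1.76 Mb in WT, 3.33 times as many, where all peaks together came to 69.1 and 13.3 Mb, 5.18 times as many. Median widths were 466 bp (quartiles 286 and 896) in cKO and 277 bp (quartiles 200 and 430) in WT. Wider than 2 kb were 567 cKO internal-exon peaks (7.92%) and 22 WT ones (0.474%). At the other end, 27.8% of cKO and 54.9% of WT internal-exon peaks were at most 300 bp wide. The narrowest peak of each list equals the fragment length its caller modelled, 185 bp in cKO and 152 bp in WT, and the part of that setting in the widths was not tested.

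On the X chromosome, 113 of 1146 cKO peaks (9.86%) and 19 of 138 WT peaks (13.8%) were internal-exon peaks, a ratio of numbers of 5.95. On the autosomes the numbers were 7036 of 94527 (7.44%) and 4624 of 36664 (12.6%), a ratio of 1.52. All X peaks together differed by more than the internal-exon ones, so the internal-exon share was lower in cKO there, as on the autosomes. Both libraries had peaks on the Y chromosome, and 7 of 77 cKO and 3 of 18 WT peaks there were on internal exons.

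**Figure D1:**
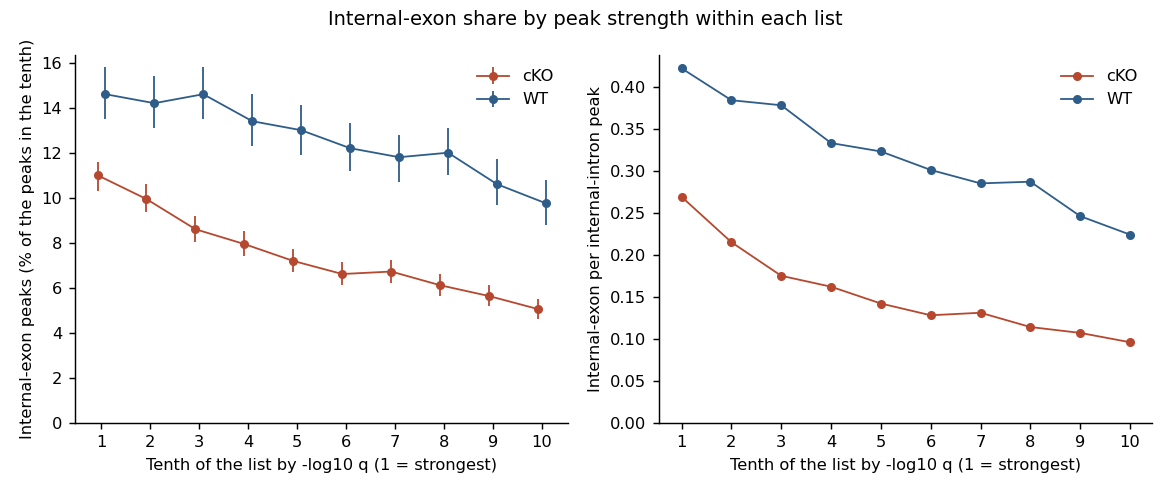
Share of peaks on internal exons (%, left, exact 95% intervals) and internal-exon peaks per internal-intron peak (right) in 10 equal groups of each list, ordered by −log10 q from the strongest (1) to the weakest, for cKO and WT. In cKO the strongest group holds 11% and the weakest 5.05% internal-exon peaks, and in WT 14.6% and 9.75%.

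Within each list, internal exons were more frequent among strong peaks. Ordered by the authors' −log10 q and cut into 10 equal groups, the cKO list held 11% (10.3 to 11.6) internal-exon peaks in its strongest group and 5.05% (4.62 to 5.51) in its weakest. The WT list held 14.6% (13.5 to 15.8) in its strongest group and 9.75% (8.81 to 10.8) in its weakest. Per internal-intron peak, the numbers were 0.269 in the strongest and 0.0959 in the weakest group of cKO, and 0.422 and 0.224 in those of WT. Width ran the same way. In cKO, internal-exon peaks were 6.29% of peaks up to 200 bp and 9.88% of peaks over 2 kb. In WT, they were 11.9% of peaks up to 200 bp and 15% of peaks between 1000 and 2000 bp, and 12.6% (8.05 to 18.4) of the 175 peaks over 2 kb.

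Most WT internal-exon peaks overlapped a cKO peak, as most WT peaks of any class did. In cKO, 2352 of the 7156 internal-exon peaks, 32.9% (31.8 to 34), overlapped a WT peak of any class by at least 1 bp. In WT, 4573 of the 4646, 98.4% (98 to 98.8), overlapped a cKO peak. Over all peaks, the shares were 25.3% of the cKO list and 96% of the WT list, and for internal-intron peaks 22.3% and 95.8%. Other classes were close to internal exons, with 30.4% of cKO and 97.6% of WT peaks on last exons. At transcript ends the shares were 31.2% and 97.9%, and at promoters 32.3% and 96.4%. The contrast between the libraries turns with the length of the lists. When the cKO list was limited to the covered length of the WT list, 93.4% of cKO and 35.8% of WT internal-exon peaks overlapped. When the overlap had to be 50% of both peaks, the shares dropped to 8.92% of cKO and 13.3% of WT internal-exon peaks. The cKO partner of a WT internal-exon peak was wider in 99.2% of pairs, with a median of 1734 bp against 280 bp for the WT peaks. It held the WT peak whole in 4192 pairs (91.7%) and held several WT peaks in 2399 (52.5%). Other WT classes were close, with 88.3% to 90.6% held whole for internal introns, last exons, transcript ends and promoters, and 44.9% (internal introns) to 61.6% (promoters) sharing their cKO peak with another.

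The peaks that cKO had beyond WT were narrower, and a lower share of them lay on internal exons. The cKO internal-exon peaks without a WT partner, 4804 of them, were 355 bp wide at the median, and those with a partner 1010 bp. Internal-exon peaks were 6.72% (6.54 to 6.9) of all cKO peaks without a partner and 9.7% (9.33 to 10.1) of those with one.

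**Figure D2:**
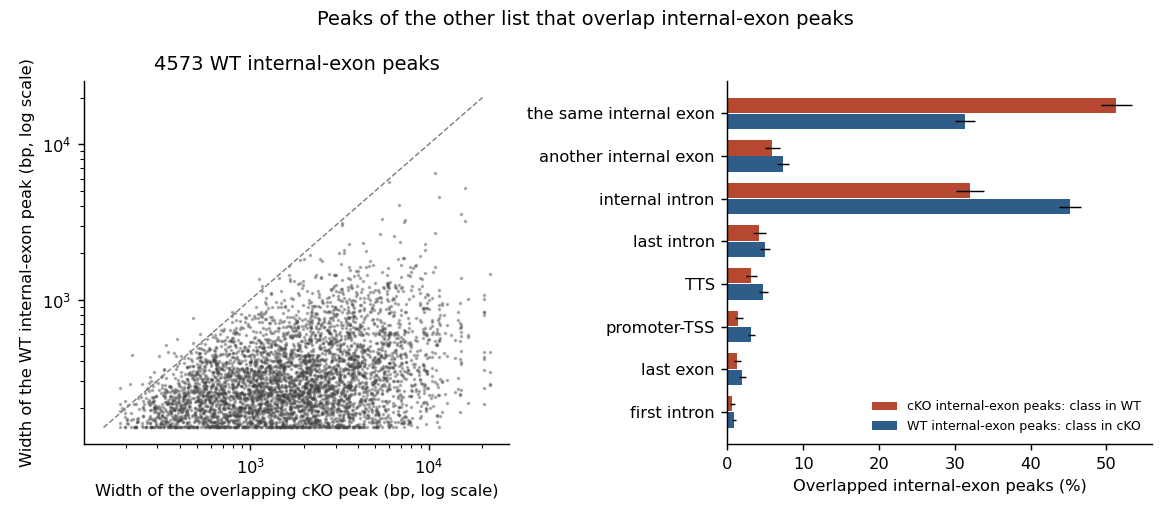
Left, width of each of the 4573 overlapped WT internal-exon peaks against that of the cKO peak overlapping it (bp, log scales, dashed line of equal width), with nearly all points on the side of the wider cKO peak. Right, class of the overlapping peak for cKO and WT internal-exon peaks (% of those overlapped, exact 95% intervals), with 51.3% of cKO and 31.3% of WT peaks paired on the same internal exon.

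Where peaks of the libraries overlapped, the annotated exon often differed. The partner of a peak is the peak of the other list that overlaps it by the most bases. Of the 2352 paired cKO peaks, 1207 (51.3%) had their WT partner on the same internal exon. For 138 (5.87%) it lay on another internal exon and for 753 (32%) in an internal intron. Of the 4573 paired WT peaks, 1432 (31.3%) had their cKO partner on the same internal exon, 333 (7.28%) on another and 2068 (45.2%) in an internal intron. The cKO peaks named 6988 exons and the WT peaks 4444, of which 1289 were named in both lists, 18.4% of the cKO exons and 29% of the WT exons. The other 3155 WT exons carried 3189 WT peaks, of which 3120 (97.8%) overlapped a cKO peak, annotated to an internal intron in 2060 cases (66%). By contrast, 1054 (18.2%) of the 5785 cKO peaks on exons named in cKO alone overlapped a WT peak.

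The WT internal-exon peaks with no cKO partner numbered 73, on 71 genes, with a median width of 182 bp. Of these, 55 lay within 1 kb of a cKO peak, at a median distance of 493 bp over all 73. The strongest of them by −log10 q lay on exon 3 of 4 of Tmem267 (chr13:119495063-119495317), and its nearest cKO peak was 10942 bp away.

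**Figure D3:**
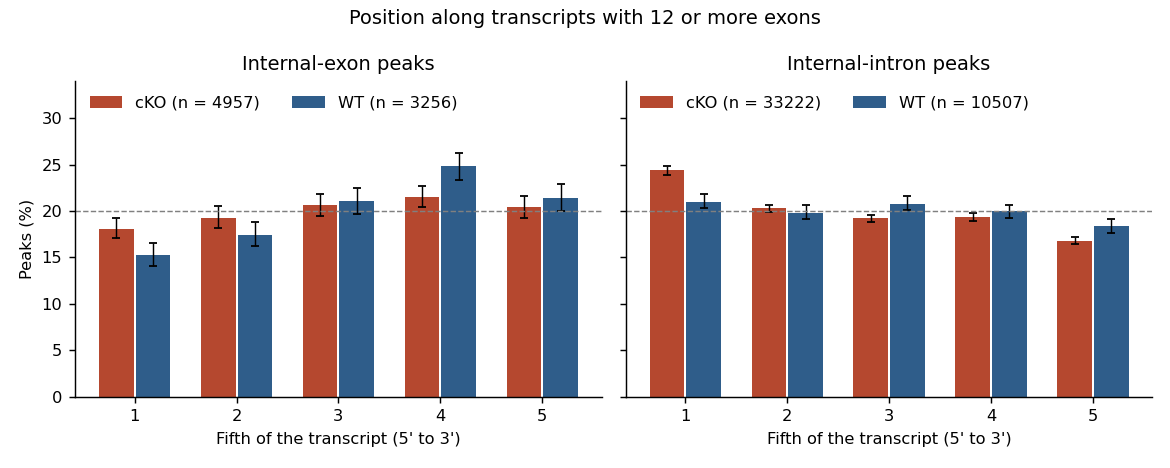
Position of internal-exon peaks (left) and internal-intron peaks (right) of cKO and WT along transcripts of at least 12 exons, in 5 bins of exon or intron number from 5′ to 3′ (% of the peaks of each library, exact 95% intervals, dashed line at an equal share per bin). The first bin can hold more exons or introns than the last, so an even spread of peaks need not follow the line. The fourth bin holds 21.5% of cKO and 24.8% of WT internal-exon peaks, and the first 18.1% and 15.3%.

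Along the transcript, the first bin of internal exons held the lowest share of internal-exon peaks in both libraries. In transcripts of at least 12 exons, the internal exons were split by number into 5 bins, equal in size only where their count divides by 5. Otherwise the first bin holds more exons than the last, and the part of bin size in the shares was not tested. From 5′ to 3′, the bins held 18.1%, 19.3%, 20.6%, 21.5% and 20.4% of 4957 cKO peaks. They held 15.3%, 17.4%, 21.1%, 24.8% and 21.4% of 3256 WT peaks. In the last bin the order of the libraries turns with the length of the cKO list, which held 21.6% there at the WT number of peaks and 24% at the WT covered length, against 21.4% in WT. Internal-intron peaks of such transcripts had 24.4% in the first bin and 16.8% in the last in cKO, and 21% and 18.4% in WT. The intron bins were unequal in the same way, so no lean along the transcript is read from these shares. The cKO internal-exon peaks with a WT partner had 17.1% in the first and 23.6% in the fourth bin, and those without one had 18.6% and 20.5%.

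The second exon stood apart, most of all in WT. If peaks were spread evenly over the internal exons of these transcripts, the second exon would hold 5.3% of them in cKO and 5.31% in WT. It held 187 peaks in cKO, 0.712 times the even share, and 67 in WT, 0.387 times. The third exon had 0.846 times the even share in cKO and 0.763 times in WT. At the 3′ side, the penultimate exon had 320 peaks in cKO, 1.22 times, and 217 in WT, 1.25 times. A peak near an annotated start or end carries a promoter or end class instead, and exon lengths were not available, so the part of either in this pattern was not tested.

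At the edges of the rule, peaks on exon 2 of 3, the shortest transcripts inside it, numbered 117 in cKO (median 573 bp) and 95 in WT (287 bp). Transcripts of 2 exons, just outside, had 1176 exon peaks in cKO (482 bp) and 551 in WT (306 bp). Penultimate exons in transcripts of any length above the limit, just inside, had 975 peaks in cKO (519 bp) and 672 in WT (279 bp). Last exons of transcripts of 3 or more, just outside, had 5921 in cKO (485 bp) and 2827 in WT (275 bp).

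The internal-exon peaks fell on 3632 genes in cKO, 39.1% of the 9284 genes with a peak in a gene class in either list, and on 2381 in WT, 25.6% of them. Genes with one in both libraries numbered 1674, in cKO alone 1958 and in WT alone 707. Calling a gene different at a gap of at least 2 peaks and at least 2-fold, 955 genes (10.3% of 9284) had more in cKO and 361 (3.89%) had fewer. With only the strongest 36820 cKO peaks kept, 200 had more and 495 fewer. The summed width of internal-exon peaks was higher in cKO in 3446 genes and lower in 893.

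A lower number of internal-exon peaks in cKO did not go with lower coverage of the gene by peaks. Peaks of any class covered more of the span in cKO than in WT in 361 of the 361 genes with fewer and in 954 of the 955 with more, as in 9138 (98.4%) of all 9284. Where there were fewer, the median share of the span was 57.6% in cKO and 15.8% in WT. In the 955 genes with more, the medians were 19% and 1.33%, and over all genes 21.5% and 2%. Of the 361, 183 had no internal-exon peak in cKO, and of the 955, 631 had none in WT. The genes with more were long, with a median span of 58446 bp, against 28566 bp for those with fewer and 25864 bp for all. The macrophage gene Cd68 shows the limit of counting by annotation. Its 2 WT internal-exon peaks stood against none in cKO, yet a cKO peak of 7252 bp annotated to a neighbouring transcript covered 100% of its span, against 52.7% under WT peaks.

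**Figure D4:**
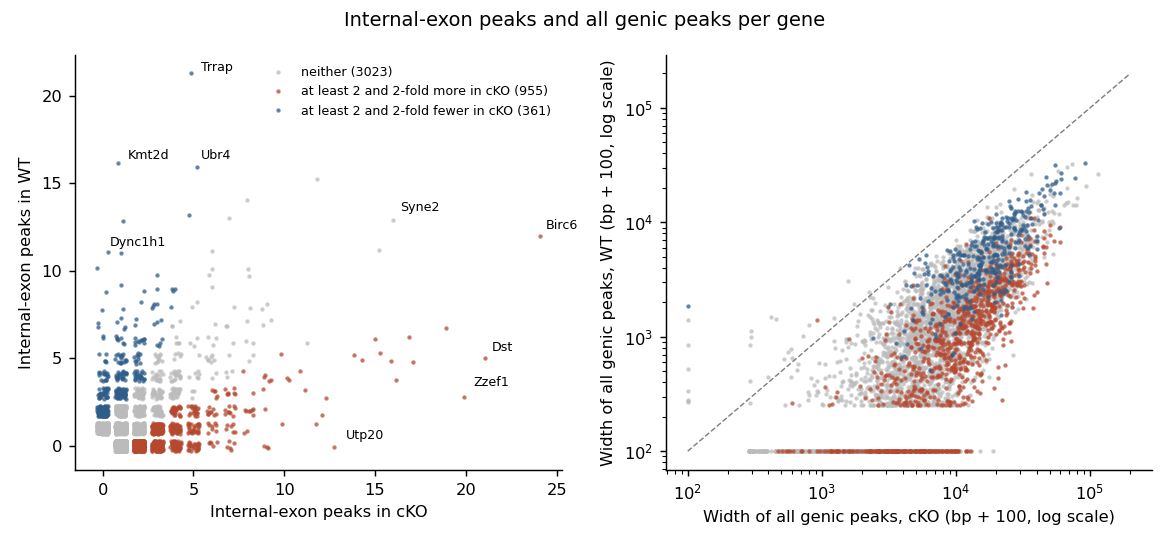
Left, number of internal-exon peaks per gene in cKO (x axis) and WT (y axis), with small random offsets so that points do not hide each other. Right, summed width of all peaks annotated to the same genes (bp + 100, log scales, dashed line of equal width), where the 361 genes with fewer internal-exon peaks in cKO lie, but for Cd68, on the side of more cKO bases.

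Birc6, a giant ubiquitin-conjugating enzyme that inhibits apoptosis, had the most internal-exon peaks in cKO, 24 against 12 in WT, over a transcript of 73 exons. They covered 11673 bp in cKO and 2884 bp in WT. Dst, the cytoskeletal linker dystonin, had 21 in cKO and 5 in WT, and 6.94% of its gene span was under cKO peaks against 0.535% under WT peaks. Zzef1 had 20 and 3, the ubiquitin ligase gene Herc2 19 and 7, and Mdn1, which encodes the ribosome-assembly ATPase midasin, 17 and 5. Utp20, a component of the small-subunit processome in the nucleolus, had 13 in cKO and none in WT, where 9 peaks of other classes lay on it. The ubiquitin ligase gene Trip12 had 12 and 1. The widest internal-exon peak on these genes, on Mdn1 in both libraries, was 2601 bp long in cKO and 552 bp long in WT. Mycbp2, a ubiquitin ligase gene of axon development, had 17 and 6, Lama1, a laminin chain gene, 16 and 4, and Smg1, the kinase of nonsense-mediated decay, 16 and 5. Syne2, which encodes the nuclear envelope protein nesprin-2, had 16 and 13, and Macf1, a linker of microtubules and actin, 15 and 11, so that neither was called.

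At the other end stood genes with more internal-exon peaks in WT. Trrap, the scaffold of the TIP60 and SAGA acetyltransferase complexes, had 5 internal-exon peaks in cKO and 21 in WT, the most of the WT list. Peaks of any class covered 81.9% of its span in cKO and 25.9% in WT. Kmt2d, a histone H3 lysine 4 methyltransferase gene, had 1 in cKO and 16 in WT, with 78.1% and 43.2% of the span covered, and the widest cKO peak on it measured 20351 bp. The ubiquitin ligase gene Ubr4 had 5 and 16, with 82.7% and 29.7% covered. The endocytic receptor gene Lrp1 had 1 and 13, with 65.8% and 17%. Dync1h1, the heavy chain of cytoplasmic dynein, had none in cKO and 11 in WT, with 79.7% and 47.7% covered and a cKO peak of 22024 bp. Gcn1, an activator of the kinase that senses amino acid shortage, had 1 and 11, and Gtf3c1, a subunit gene of the RNA polymerase III factor TFIIIC, 0 and 10. Sptan1, the gene of the non-erythroid alpha spectrin, had 5 and 13, Snrnp200, the helicase gene of the U5 snRNP, 1 and 9, and the filopodial motor gene Myo10 0 and 9. The spans of these 5 genes were 15.7% (Myo10) to 84.1% (Snrnp200) covered in cKO and 6.59% to 36.7% in WT. The growth kinase gene Mtor had 7 and 13, the guanine exchange factor gene Trio 12 and 15, and Hectd4 8 and 14, none of them called.

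The strongest internal-exon peak in cKO lay on exon 10 of 19 of Srebf2, which encodes the transcription factor of cholesterol synthesis (chr15:82176393-82187685, 11293 bp). Under it the WT list had 11 separate peaks that covered 45.3% of it, some on exons and some in introns. Second came exon 3 of 7 of Son, a splicing cofactor gene with a very long internal exon (chr16:91654722-91660712, 5991 bp). There WT had a single peak, of 5754 bp, which was the fifth strongest and second widest of its own set. Exon 10 of 14 of Srrm2, another long exon of a splicing cofactor gene, carried a cKO peak of 10808 bp and the widest WT internal-exon peak, of 6583 bp. The fourth in cKO lay on exon 14 of 19 of a transcript with no RefSeq protein-coding gene, and the fifth, which was also the widest at 16018 bp, on exon 24 of 43 of Fasn, the fatty acid synthase gene. Within it, 7 WT peaks covered 84.3%. Agrn, Smarca4, Scrib and Llgl1 followed in width, with cKO peaks of 15154, 15041, 12575 and 12326 bp, 53.6% to 64.5% of each under 10 to 16 WT peaks.

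In WT, the strongest lay on exon 8 of 26 of Zswim8 (chr14:20711885-20714172, 2288 bp), inside a cKO peak of 9498 bp that was annotated to an intron. The next, on exon 2 of 4 of Sfr1, measured 450 bp and had a cKO partner of similar size, 467 bp, on the same exon. After it came exon 12 of 39 of Chd4 (1222 bp) and exon 9 of 13 of Smarcd1 (1364 bp), both genes of chromatin remodelling complexes. Each lay wholly inside a cKO peak annotated to an intron, of 8074 and 9159 bp. Beyond Srrm2, Son and Fasn (5206 bp), the widest WT peaks were on exon 16 of 24 of Upf1 (4568 bp), the helicase of nonsense-mediated decay, and exon 11 of 16 of Slc38a2 (4063 bp), an amino acid transporter gene.

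**Figure D5:**
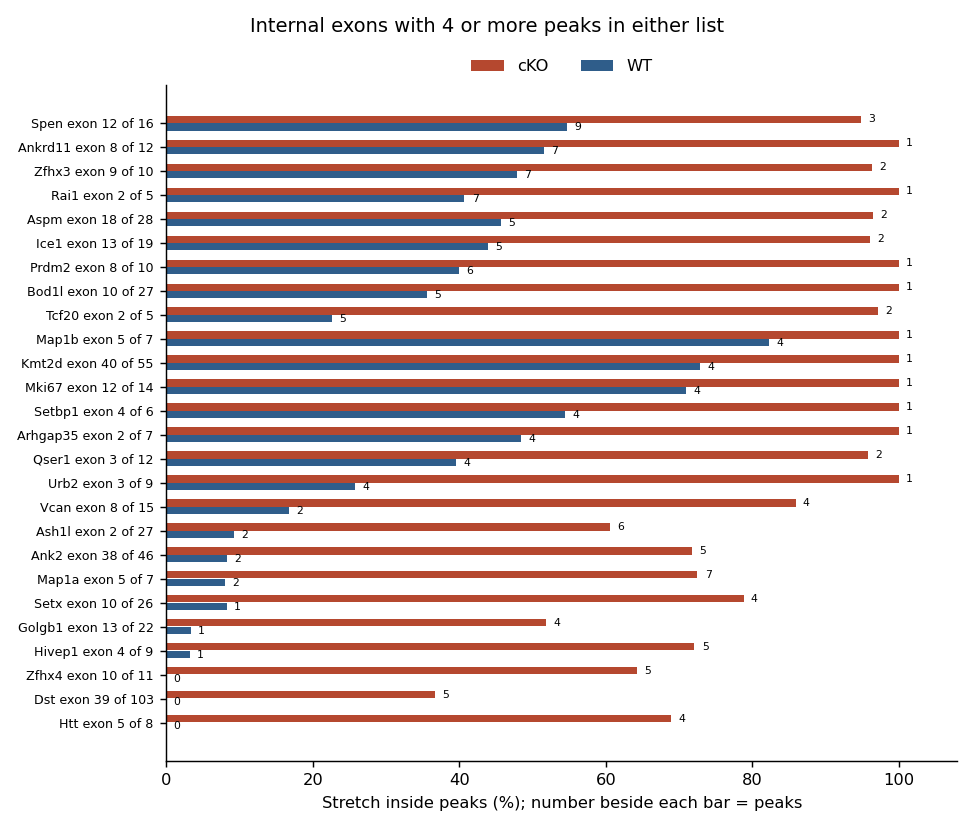
For each of 26 internal exons with 4 or more peaks in either library, the share of the stretch those peaks span that lay under peaks of any class (%), cKO above WT, with the number of peaks beside each bar. The cKO bar is the longer on all 26, with medians of 96.2% in cKO and 37.5% in WT.

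Where an exon is long enough to hold several peaks, both arrangements could be seen. There were 120 exons with at least 2 peaks in cKO and 139 in WT, with at most 7 in either. The 26 exons with 4 or more in either list are described without a test, since their values chose them, and the peaks counted below are all that touch the stretch. On 16 of them cKO had fewer peaks than WT and on 10 it had more, while bases under peaks were more in cKO on all 26. The 16 were chosen by their WT peaks and the 10 by their cKO peaks, so this split follows the choice and is not read as a balance. Exon 8 of 12 of Ankrd11, a chromatin regulator gene, had 7 WT peaks covering 51.5% of a 6412 bp stretch, all within 1 cKO peak of 14967 bp. Exon 2 of 5 of Rai1 likewise had 1 cKO peak and 7 WT peaks, with 100% and 40.7% covered, and exon 12 of 16 of Spen had 3 and 9, with 94.8% and 54.7%. Exon 12 of 14 of Mki67, the proliferation marker gene, had 1 and 4, with 100% and 71%, and exon 5 of 7 of Map1b, a microtubule-associated protein gene, 1 and 4, with 100% and 82.3%. Exon 5 of 7 of its relative Map1a stood the other way, with 7 cKO peaks covering 72.5% and 2 WT peaks covering 8.05%. Exon 38 of 46 of Ank2, whose internal start window is shown above, had 5 and 2, with 71.8% and 8.23%. Exon 10 of 11 of Zfhx4 and exon 39 of 103 of Dst had 5 cKO peaks each and none in WT.

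H2az1, the deleted gene, had no internal-exon peak in either library, and its paralogue H2az2 had none in cKO and 1 of 216 bp in WT. Peaks of any class covered 21.1% of the H2az1 span in cKO and 7.8% in WT, which does not report on the deletion. Of 24 genes of H2A.Z and its exchange complexes, all with a genic peak, 11 (45.8%) had an internal-exon peak in cKO and 17 (70.8%) in WT. Over all 9284 genes the shares were 39.1% and 25.6%. The 24 genes had 26 peaks in cKO and 58 in WT. The number was higher in cKO in 4 of them and lower in 11, against 2585 and 1158 over all genes. The median difference was 0 peaks in both sets. By the rule above, 1 had more and 6 had fewer, where 10.3% and 3.89% of all genes did. The catalytic gene Srcap was among the 6, with 2 and 6 peaks, and Brd8 and Kat5 of the TIP60 complex had 0 against 5 and 0 against 2. Ep400, the other exchange ATPase gene, had 5 and 8 and was not called, and Ino80 was the one with more, 4 and 1. Genic peaks of any class summed to more bases in cKO for all 24, 374885 bp in total against 92697 bp, as they did for 9047 (97.4%) of all 9284 genes.

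Among 27 genes of H3K36 methylation, 18 (66.7%) had an internal-exon peak in cKO and 16 (59.3%) in WT, against 39.1% and 25.6% of all 9284 genes. By the rule, 4 had more and 4 fewer, where 10.3% and 3.89% of all genes did. Setd2, the writer itself, had 5 in cKO and none in WT. Of the NSD family, which makes lower states of the mark, Nsd3 had 5 and 1, Nsd2 1 and 5 and Nsd1 4 and 3, and the methyltransferase gene Ash1l had 8 and 7. Among readers and partners, Msh6 of mismatch repair and Iws1, which joins SETD2 to the polymerase, had 3 and 4 each. Supt6, an elongation factor gene, had none in cKO and 6 in WT.

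Over all 9284 genes, 39.1% had an internal-exon peak in cKO and 25.6% in WT, and 10.3% were called more and 3.89% fewer. Of 34 pre-mRNA splicing genes, 23 (67.6%) had an internal-exon peak in each library. By the rule, 5 had more and 8 fewer, Aqr with 7 and 1 and Dhx15 with 6 and 1 among the first, and Dhx38 with 0 and 7 among the second. All 4 named, Snrnp200 included, encode helicases of the spliceosome. Of 25 chromatin remodeller genes with a genic peak, 17 (68%) had an internal-exon peak in cKO and 20 (80%) in WT (5 more, 7 fewer). Among them, Bptf, the large subunit of NURF, had 9 and 8 and Chd7 6 and 5. Of 26 motor and cytoskeletal scaffold genes the numbers were 21 (80.8%) and 20 (76.9%), with 5 more and 8 fewer. Of 36 housekeeping genes they were 25 (69.4%) and 26 (72.2%), with 10 more and 6 fewer, and Herc1 had 15 and 6. Of 30 genes of DNA replication and mitosis, 27 (90%) had an internal-exon peak in cKO and 19 (63.3%) in WT (11 more, 6 fewer). The median difference was 0.5 peaks, against 0 over all genes. Cenpe, a kinetochore motor gene, had 6 and 2, Cenpf 6 and 6, Mki67 1 and 7 and the microcephaly gene Aspm 8 and 10. Each of the lists so far had higher shares with an internal-exon peak than all genes, in both libraries. Gene length was not taken into account, and nothing particular to a list is read from these counts.

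The labelled cell type was looked for in the same way. In bulk chromatin, the share of cells that carry a mark and the amount per cell cannot be told apart. Of 36 radial glia and neural progenitor genes, 33 had a genic peak in either library and 13 (39.4% of the 33) had an internal-exon peak in each. Over all 9284 genes the shares were 39.1% in cKO and 25.6% in WT. Of the 33, 3 were called more and none fewer, against 10.3% and 3.89% over all genes. The number was higher in cKO in those 3 alone and lower in 4, against 2585 and 1158 over all genes. In total the 33 genes had 30 peaks in cKO and 27 in WT. None of the genes named next is among the 3. The receptor genes Notch2 and Notch1 had 4 against 6 and 2 against 3, Gli3, the Hedgehog pathway factor, 4 in each, and the adhesion gene Cdh2 3 in each. Sox2, a single-exon gene that cannot hold one, and Nes, the gene of the filament protein nestin, had genic peaks in both libraries but no internal-exon peak, and Pax6 had none in cKO and 1 in WT. Of 14 intermediate progenitor genes 6 had a genic peak and only Dll1, the Notch ligand, had an internal-exon peak, with none in cKO and 1 in WT. Of 29 excitatory neuron genes 13 had a genic peak and 3 (23.1% of the 13) an internal-exon peak in each library. Called more were 2, Ank2 at 8 and 4 and Ank3 at 2 and 0, and none were called fewer. No internal-exon peak fell on the 14 genes of the GABAergic lineage, the 15 of blood and microglia or the 16 of endothelium, pericytes and meninges, of which 3, 1 and none had any genic peak.

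The ChIP libraries held 32927164 tags in cKO and 31984670 in WT, and their inputs 35026817 and 38500353. Median fold over input at internal-exon peaks was 5.64 within the cKO list and 5.28 within the WT list, values that depend on each library and its input and are not set against each other. Internal-exon peaks of either library that were neighbours in position on 1 transcript formed 4119 pairs on different exons. In 4111 of them (99.8%) the exon numbers lay in the order the strand gives, so exon numbers ran 5′ to 3′.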

How the data were processed

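Peak lists and their annotation were deposited for 1 ChIP library of each genotype. The submitters' processing notes name Bowtie2 2.2.9, FastQC, bedtools and the build mm10. Peaks were called against input as narrow peaks at a p cutoff of 1.00e-05, per the file headers, with MACS 2.1.1.20160309 there and MACS2 2.1.0 in the processing notes. The deposited lists give the pileup signal at the summit, the fold enrichment over input and the −log10 of q, all as the authors' caller made them. These values ranked, filtered or described peaks within each list. The same q and fold limits were applied to both lists and the numbers left were compared, although the values depend on each library and its input. Per the file headers no q was calculated, though the column holds positive values. The name of the cKO input carries 2 numbers, and any pooling of inputs is not stated. For the annotation tool, which gave each peak 1 class, no name is given in the sources used here.

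Lists and annotation were joined by chromosome, start (1 bp lower in the list) and end. The deposited gene name of a peak is that of the nearest start, which was the gene of the annotated transcript for 66.8% of cKO and 66.5% of WT internal-exon peaks. Each transcript was therefore given the gene the files pair with it or, failing that, the RefSeq protein-coding gene (GRCm38.p6, the chromosomes of mm10) whose span holds most of its peak centres, a step chosen after seeing the files. Where both routes could be compared, they gave the same gene for 98.9% of 11817 transcripts. A genic peak is one with such a gene, and 24 cKO and 14 WT internal-exon peaks had none. Peaks overlapped at 1 bp or more. The members and 13 gene lists were chosen with earlier results of these data known. Of 332 list entries, 331 matched RefSeq. Named were the 10 genes with the most internal-exon peaks per library and the 10 largest differences each way, the 5 strongest and 5 widest peaks per library, the deleted gene and its paralogue, and up to 4 genes per list with the most peaks. Cd68, Tmem267, Kat5, Ino80, Setd2, Nsd2, Nsd3, Supt6, Sox2, Nes and Pax6, and the exons with 4 or more peaks, were chosen after their values were seen. Counting was tested on simulated peaks. Python 3.11.15, numpy 2.4.6, pandas 2.3.3, scipy 1.17.1 and matplotlib 3.10.9 were used.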

Additional observations from a re-analysis of the deposited data

How the results depend on the processing

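The higher number of internal-exon peaks in cKO held at a −log10 q of at least 5 (ratio 1.85), at a fold of at least 4 (1.45) and on the autosomes (1.52). It turned round when only the strongest cKO peaks were kept, up to the WT number (0.748) or the WT covered length (0.125), which leaves 5308 cKO peaks. The share of the cKO list was 7.65%, 7.82%, 9.44% and 10.9% at the q limit, the fold limit, the WT number and the WT length, and the WT share 13.3% at the q limit, above the cKO share in every setting run. Internal-exon peaks per internal-intron peak also stayed lower in cKO, between 0.149 and 0.277 against 0.314 to 0.342 in WT. The share of cKO internal-exon peaks under a WT peak was 27.5% at the q limit, 56.4% at the WT number, 93.4% at the WT length, 25.5% when the summit had to lie inside and 8.92% at a reciprocal 50%. The WT share under a cKO peak was 95.2% at the fold limit, 87.6%, 35.8%, 97.6% and 13.3%, in the order WT number, WT length, summit and reciprocal 50%. The last of 5 bins held 21.6% of cKO peaks at the WT number and 24% at the WT length, now above the 21.4% of WT. Genes with more peaks in cKO numbered 200 at the WT number, 5 at the WT length and 2054 by summed width, against 955, and genes with fewer numbered 877 at the WT length, against 361. The cause of these shifts was not tested. The 30 other values computed moved by less than their counting interval or, for counts of genes, by less than 1.5 times. No paired analysis was possible because each genotype has 1 ChIP library, and none could be left out. Pileup at the summit was low, with a median at internal-exon peaks of 27 in cKO and 19 in WT, values that depend on each library and are not set against each other.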
